A study of Mus musculus with 11 samples.

Results

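The genes described here carry symbols that begin with Kcn, Cacna, Cacnb, Cacng or Scn followed by a digit, the symbols given to voltage-gated sodium, calcium and potassium channels and to their auxiliary subunits. Kcnj8, Kcnj10, Kcne2 and the Scnn genes were left out by the rule. The array carried 131 such genes, and 123 of them were tested among 25965 features because a probe of theirs stood well above background in 5 or more of the 22 channels. The other 8 genes, among them Kcne1, Kcnj1, Kcnk18, Kcnmb3 and Kcnn1, were well above background in 0 channels, while Kcng3, Kcnj15 and Scn7a were just inside the limit at 5 channels. For 99 genes the probe used was well above background in all 22 channels. The shared symbols reach beyond voltage-gated channels: the 123 genes comprised 9 sodium channel alpha and 3 beta subunits, 10 calcium channel pore subunits, 4 alpha2delta, 4 beta and 8 gamma subunits, 29 voltage-gated potassium pore subunits, 9 modifying and 11 auxiliary potassium subunits, 10 calcium- or sodium-activated potassium channels, 12 inward rectifiers, 13 two-pore leak channels, and Kcnq1ot1, a noncoding RNA antisense to Kcnq1.

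Voltage-gated sodium channels carry the upstroke of the action potential, calcium channels couple depolarisation to transmitter release and gene expression, and potassium channels repolarise the membrane and set firing rate. Pore subunits form the ion path, and beta, alpha2delta, gamma and KChIP-type auxiliary subunits control their trafficking and gating. In cortex most of these genes are expressed by neurons, whereas certain inward rectifiers and two-pore channels set the potassium conductance of glia, and others serve immune cells, vessels or choroid plexus.

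RNA came from cortex of the right hemisphere of 22 mice on a C57/Bl6J background, 5 to 7 months old, in 4 groups. WT (6 mice) were intact wild-type animals and T (5 mice) were intact animals carrying GFA2-tTa/TetO-VP16-CREB, a tetracycline-regulated pair of transgenes in which the astrocyte promoter fragment GFA2 drives CREB, a transcription factor, in a constitutively active form. WTC (5 mice) and TC (6 mice) were wild-type and transgenic animals with a focal cryolesion, made by holding a dry ice pellet to the surface of the brain for 30 s and studied 3 days later. Each of 11 Agilent arrays paired 2 mice, 1 labelled with Cy5 and the other with Cy3, and each channel held a different mouse, so the errors below describe the spread between animals. The comparisons ask how the lesion changed the channel genes in wild-type and in transgenic cortex, and how the transgene changed them in intact and in lesioned cortex.

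Between 56.6% and 65.3% of non-control spots were well above background in a channel, and 0 spots were saturated. Levels are log2 intensities after normalisation with the dye effect removed, and they are compared between animals for the same probe only. The TC mouse of array I stood apart: it had the lowest level of all 22 animals for 20 of the channel genes and the highest for 23. Its mean level of 8 excitatory neuron markers was 9.41, against 10.6 in the WT mouse of array A and 11.2 to 13.0 in all others, and its level of 9 microglia and macrophage markers, 11.3, lay within the range of intact mice. Its level of 8 astrocyte markers, 12.5, lay above all intact mice (11.5 to 11.95) and below the other lesioned mice (12.7 to 13.3). The titles of arrays I, J and K give the Cy3 mice as TC, T and TC, whereas the labels of that channel give T, TC and T. In the microglia and macrophage markers the Cy3 mouse of array J was at 11.5, within the WT range of 11.2 to 11.7. That of array K was at 13.5, within the WTC range of 12.7 to 13.6, so on arrays J and K these levels match the titles. Groups follow the titles, and results that turn on the mice of arrays I, J and K are given with and without them. All WT mice were on slide 1, which held arrays A to F, and the other groups were spread over both slides. Levels of the Y-linked gene Ddx3y were 5.60 to 6.86 in 2 WT mice, 1 T mouse and 1 WTC mouse and 9.25 or more in all others.

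Because the transgene encodes an active CREB, the promoters of the channel genes were searched for its DNA element. The RefSeq promoter table (GRCm38.p6, from 250 bases before to 50 after each gene start) held 126 promoters of 92 of the genes. The full cAMP response element TGACGTCA, a palindrome and so the same on both strands, was in 0 of these 126 promoters and in 1.79% of all 32851 promoters. The short form TGACG or its reverse complement CGTCA, which any full element also contains, was in 21 of the 126 promoters (16.7%) and in 20.8% of all promoters. Among genes with a promoter in the table, the short form was found for 4 of the 29 that changed with the lesion in wild-type cortex by the separate-channel fit described below and for 17 of the other 63. The 4 promoters are shown with that of Kcnj13, the gene with the widest spread between animals. Capitals mark the short form.
Cacnb2, chr2:14823842-14824141, plus strand: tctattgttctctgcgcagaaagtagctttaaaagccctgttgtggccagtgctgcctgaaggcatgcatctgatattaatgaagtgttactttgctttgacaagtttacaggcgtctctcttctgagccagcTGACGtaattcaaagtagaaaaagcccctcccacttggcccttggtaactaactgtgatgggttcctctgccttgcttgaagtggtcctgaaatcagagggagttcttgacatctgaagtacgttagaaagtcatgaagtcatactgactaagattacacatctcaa
Kcnc4, chr3:107458849-107459148, minus strand: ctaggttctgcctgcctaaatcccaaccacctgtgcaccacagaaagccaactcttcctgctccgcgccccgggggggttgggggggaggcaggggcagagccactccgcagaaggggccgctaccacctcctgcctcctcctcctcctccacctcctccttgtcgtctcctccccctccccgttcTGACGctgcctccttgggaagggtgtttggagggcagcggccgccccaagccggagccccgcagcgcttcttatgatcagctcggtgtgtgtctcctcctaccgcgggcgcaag
Kcne4, chr1:78816661-78816960, plus strand: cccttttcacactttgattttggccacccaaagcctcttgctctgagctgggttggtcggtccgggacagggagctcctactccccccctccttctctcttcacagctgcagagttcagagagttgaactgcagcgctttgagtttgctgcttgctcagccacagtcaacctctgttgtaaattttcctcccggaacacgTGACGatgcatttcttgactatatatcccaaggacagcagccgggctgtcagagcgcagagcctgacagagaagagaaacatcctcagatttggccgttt
Kcnh6, chr11:106007898-106008197, plus strand: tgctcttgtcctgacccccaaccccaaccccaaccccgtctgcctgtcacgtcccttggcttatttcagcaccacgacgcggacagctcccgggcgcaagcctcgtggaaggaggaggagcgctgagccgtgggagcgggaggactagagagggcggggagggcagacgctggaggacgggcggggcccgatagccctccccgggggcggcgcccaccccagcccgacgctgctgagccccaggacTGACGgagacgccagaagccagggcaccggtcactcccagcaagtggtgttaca
Kcnj13, chr1:87394680-87394979, minus strand: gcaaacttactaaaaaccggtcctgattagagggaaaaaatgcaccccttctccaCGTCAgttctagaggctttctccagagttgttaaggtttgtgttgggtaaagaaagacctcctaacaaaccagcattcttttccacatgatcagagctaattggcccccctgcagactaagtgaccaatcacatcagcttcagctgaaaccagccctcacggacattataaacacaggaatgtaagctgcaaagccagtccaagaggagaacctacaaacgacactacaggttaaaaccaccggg
The short form began 117 bases before the gene start in this Cacnb2 promoter, 1 of its 2 in the table. It began 64 bases before the start in Kcnc4, 50 in Kcne4, 4 in Kcnh6 and 195 in Kcnj13. Kcnh6 was also the only channel gene whose promoter held TTCAGCACC or its reverse complement GGTGCTGAA, the left part of the element of the repressor REST, in 1 of 126 promoters (0.794%) against 0.371% of all promoters. A match is a string of letters and does not show binding.

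At 3 days after the cryolesion, channel genes of wild-type cortex lay mostly below their intact level. In the ratio fit, which models the log2 ratio of the 2 mice on each array, 92 of 123 genes had a log2 ratio of WTC to WT below 0 (74.8%), against 49.4% of all features, and the median was -0.20 against 0.00 for all features. In RNA from whole tissue, fewer cells of a type and less RNA per cell cannot be told apart. At an adjusted p under 0.05 (limma, Benjamini-Hochberg over all features), 0 channel genes passed this fit, against 6 of 25965 features (0.0231%), and the smallest adjusted p among them was 0.114, for Kcnk4. At an unadjusted p under 0.05 there were 28, or 22.8% against 19.6% of all features. Of these 5 were higher, against 12.6% of all features, and 23 lower, against 6.91%. The separate-channel fit, which also uses the intensities of all 22 channels (limma, same adjustment), called 39 genes, against 26.5% of all features. Of these 5 rose, against 14.3% of all features, and 34 fell, against 12.2% of all features. Cacng1, Kcna10 and Kcnh6, among the 34, met the limit of 5 channels above background through intact mice. All WT mice shared a slide, whereas the WTC mice were spread over both slides. The separate-channel fit and the levels of single animals thus compared WT and WTC partly between slides. With slide as a term in the separate-channel fit 18 genes passed, all 18 among the 39, which is 14.6% against 13.2% of all features. They were the 5 that rose and 13 of the 34 that fell, against 3.99% of all features lower. The rest of the 34 did not pass with the slide term. Without the WT mouse of array A and the TC mouse of array I 52 passed, 36 of them among the 39, which is 42.3% against 27.6% of all features. The authors' deposited table had 7 channel genes higher and 45 lower at an adjusted p under 0.05, of 121 with a readable p, against 14.6% and 22% of features. Of the 34 genes that fell in the separate-channel fit, 29 were among the 45 lower ones in the authors' deposited table, which is 85.3% of the former and 64.4% of the latter. For WTC against WT, a gene's log2 ratio with its SE is from the separate-channel fit below where no fit is named. Genes said to have fallen, risen or passed in that comparison, where no fit is named, did so in this fit without the slide term.

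**Figure D1:**
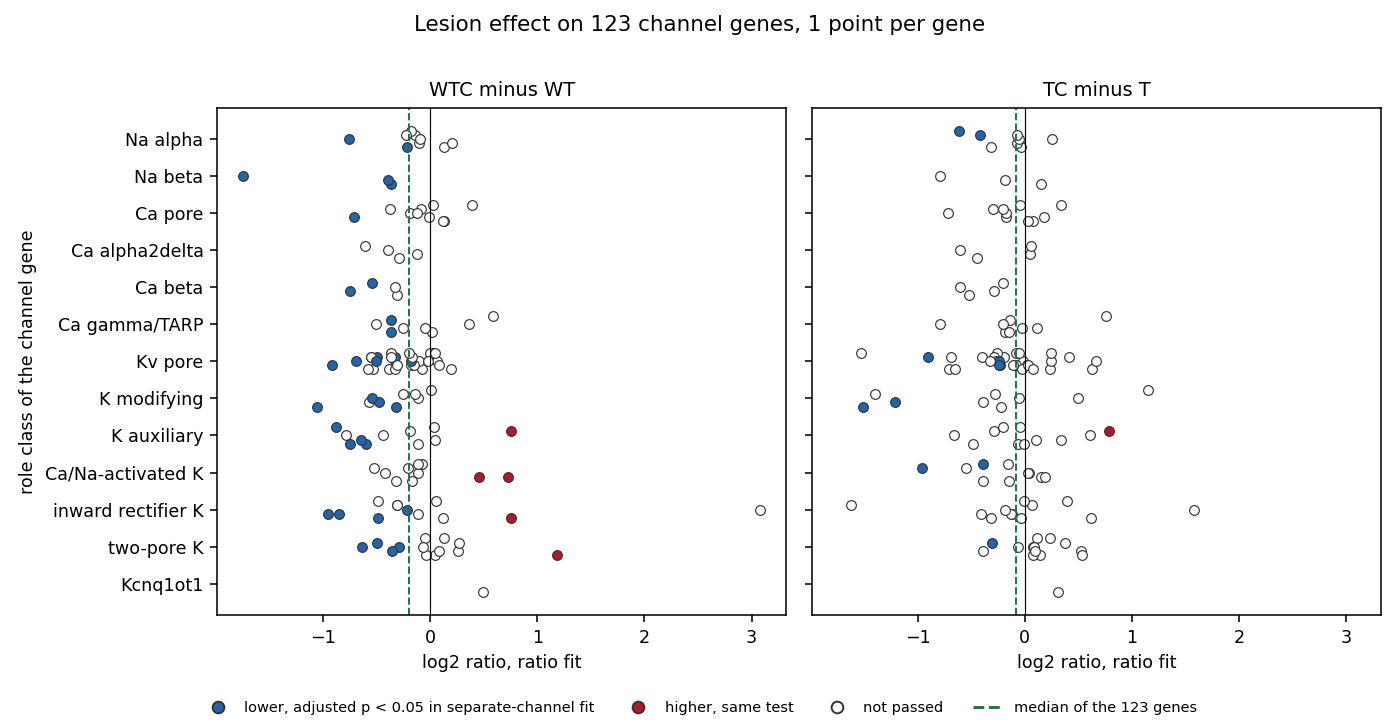
Log2 ratios of the ratio fit for the lesion effect in wild-type (WTC minus WT, left) and transgenic cortex (TC minus T, right), 1 point per gene, by role class. Filled points passed at an adjusted p under 0.05 in the separate-channel fit (39 genes on the left, 12 on the right), and dashed lines mark the medians of the 123 genes, -0.20 and -0.08; most classes lie to the left of 0, while Kcnk6 and Kcnj13 lie far to the right on the left panel.

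The levels themselves showed the separation for a smaller set. In 15 channel genes all 5 WTC mice were below all 6 WT mice, against 7.2% of all features, and in 2, Kcnk6 and Kcnn4, all were above, against 9.12% of all features. The 15 were Cacnb4, Cacng1, Cacng4, Kcna2, Kcna10, Kcnc2, Kcnh2, Kcnip1, Kcnj5, Kcnj9, Kcnj11, Kcnj12, Kcnk3, Kcnk4 and Scn2b. Of these, Cacng1 and Kcna10 met the limit of 5 channels above background through intact mice, where they were high. Kcnip4, Kcnk3, Scn4b and Kcnk6 passed in all 8 alternative fits, those without a single array aside, in which any channel gene passed, the first 3 lower and Kcnk6 higher. Of the 39 genes, 33 had the same sign on each of arrays A and B, where lesioned and intact wild-type mice were compared directly.

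Among sodium channel alpha subunits, Scn1a, the channel of many inhibitory interneurons and their axons, fell. Its level was between 12.6 and 13.8 with a median of 13.2 in WT and 11.7, 12.2, 12.2, 12.4 and 12.8 in the 5 WTC mice. The groups overlapped at a single WTC mouse, that of array M. The log2 ratio was -0.76 ± 0.39 (SE) in the ratio fit and -0.89 ± 0.28 in the separate-channel fit, where it passed with an adjusted p of 0.0286 (0.00136 to 0.436 over the fits tried). Without array A the ratio-fit value was -0.20. Scn4a, best known from skeletal muscle, also fell, by 0.37 in the separate-channel fit. The other 7 alpha subunits did not pass: Scn2a, the main channel of the axon initial segment of excitatory neurons, was at -0.14 ± 0.13, Scn3a at -0.18 ± 0.25 and Scn8a, the channel of nodes of Ranvier, at -0.22 ± 0.11 in the ratio fit. The 3 probes of Scn8a disagreed, with log2 ratios of -0.22, -0.24 and 0.11. Over the class 7 of 9 log2 ratios were below 0, from -0.76 to 0.21.

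The beta subunits Scn2b and Scn4b, which anchor the alpha subunits and tune their gating, fell in the separate-channel fit. Scn2b was between 14.8 and 15.1 with a median of 14.98 in WT and 14.6, 14.2, 14.3, 14.4 and 13.9 in WTC. Every WTC mouse was below every WT mouse, and the log2 ratio was -0.61 ± 0.14 (adjusted p 0.00519, 0.00159 to 0.437 over the fits tried). In the ratio fit it was -0.40 ± 0.15, and -0.23 without array B. Scn4b, the beta subunit of resurgent sodium current and abundant in striatal neurons, was between 13.5 and 15.2 with a median of 14.8 in WT and 10.6, 13.1, 11.6, 14.1 and 14.9 in WTC. Its separate-channel log2 ratio was -1.66 ± 0.60, a 3.17-fold lower level on average, with an adjusted p of 0.0457 (0.00571 to 0.374 over the fits tried), but the WTC mice of arrays L and M lay within the WT range.

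Of 10 calcium channel pore subunits 1 fell in the separate-channel fit, against 12.2% of all features. It was Cacna1g, a low-voltage-activated channel of burst firing, at -0.82 ± 0.26. The high-voltage-activated Cacna1a, Cacna1b and Cacna1e, which serve transmitter release, were at 0.13 ± 0.13, -0.01 ± 0.10 and 0.03 ± 0.14 in the ratio fit and did not pass. Nor did the L-type channel Cacna1c, at -0.19 ± 0.09, or the low-voltage-activated Cacna1i, at -0.37 ± 0.16, both in the ratio fit. Among the pores 6 of 10 log2 ratios were below 0, from -0.71 to 0.39. The median ratio-fit log2 ratio was -0.44 for the 4 beta subunits, -0.34 for the 4 alpha2delta subunits, of which 0 passed, -0.15 for the 8 gamma subunits and -0.05 for the pores, and the difference between these classes was not tested. Cacnb4, a beta subunit that brings pore subunits to the membrane, was between 12.4 and 12.8 with a median of 12.6 in WT and 11.6, 11.9, 11.9, 12.1 and 11.7 in WTC. The groups did not overlap, and the separate-channel log2 ratio was -0.69 ± 0.15 (adjusted p 0.00304, 0.00149 to 0.378 over the fits tried). The ratio fit gave -0.55 ± 0.17, and -0.34 without array B.

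Cacnb2, whose promoter is printed above, was between 9.03 and 9.60 with a median of 9.15 in WT. In WTC it was at 9.51, 8.29, 7.45, 8.30 and 7.33, with the mouse of array A among the WT values and the other 4 below them. Its separate-channel log2 ratio was -0.98 ± 0.27. Cacna2d1, the alpha2delta subunit bound by gabapentin, was at -0.37 ± 0.17 and Cacna2d3 at -0.58 ± 0.23, and neither passed. Among the 8 gamma subunits, Cacng4, a regulator of AMPA receptors, fell by 0.46 (SE 0.13), while Cacng2 (stargazin) was at -0.19 ± 0.17 and did not pass. Cacng1, the gamma subunit of skeletal muscle, was well above background in 6 of 6 WT mice and 0 of 5 WTC mice. Its mean was at least 1.25-fold higher in WT. For this bound each WTC level was the measured one or, if greater, the lowest signal above background in that channel. The bound carries no sampling error. Cacng1 passed with an adjusted p of 0.00275 (0.00243 to 0.374 over the fits tried). Cacng1 met the limit of 5 channels above background through intact mice, so its fall is tied to that filter. In the ratio fit 5 of 8 log2 ratios were below 0, from -0.51 to 0.59 in this class.

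Of 29 voltage-gated potassium pore subunits 7 fell and 0 rose in the separate-channel fit, against 12.2% and 14.3% of all features. The 7 were Kcna2, Kcna3, Kcna10, Kcnc2, Kcnc4, Kcnh6 and Kcnq3. Kcna2, an axonal channel next to the nodes of Ranvier, was between 10.5 and 11.1 with a median of 10.8 in WT and 9.93, 9.68, 9.85, 10.4 and 9.75 in WTC. No WTC mouse reached the WT range, and the log2 ratio was -0.82 ± 0.20 (adjusted p 0.00745, 0.000896 to 0.378 over the fits tried). Its ratio-fit value of -0.69 ± 0.25 became -0.44 without array B. Kcnc2, a fast delayed rectifier of fast-spiking interneurons, fell by 1.16 (SE 0.32) and also had no overlap. Its relative Kcnc1 was at -0.94 ± 0.37 and did not pass, whereas Kcnc4 fell by 0.54 and Kcna3, a channel of neurons and immune cells, by 0.40. The ratio fit gave -0.86 to 0.08 for Kcnc1 with each array left out in turn. Kcnh6, whose promoter held the short form TGACG and the left part of the REST element, changed by -0.20 ± 0.07. It was well above background in 5 of 6 WT and 1 of 5 WTC mice, so that its WTC level is near the lower limit of the measurement. Kcnh6 met the limit of 5 channels above background through intact mice, so its fall is tied to that filter. Kcnh2, a relative of the ether-a-go-go family, had no overlap between the groups but did not pass, at -0.84 ± 0.34.

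Kcnq3, a subunit of the M-current, fell by 0.61 (SE 0.17). Kcna10 was well above background in 6 of 6 WT and 0 of 5 WTC mice. Its mean was at least 1.23-fold higher in WT by the bound used for Cacng1. Kcna10 passed with an adjusted p of 0.00162 (0.000298 to 0.374 over the fits tried). Like Cacng1, it met the limit of 5 channels above background through intact mice, so its fall is tied to that filter. With each array left out in turn, the ratio fit gave -0.49 to -0.13 for the A-type channel Kcnd2 and -0.18 to 0.08 for Kcna1. In the separate-channel fit Kcnd2 was at -0.63 ± 0.25 and Kcna1 at -0.30 ± 0.15. Neither passed, nor did Kcna6 at -0.14 ± 0.15 or Kcnh7 at -0.16 ± 0.25. In the ratio fit 24 of 29 log2 ratios were below 0, from -0.92 to 0.19.

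Modifying subunits, which are silent alone and alter other potassium channels, included 4 of 9 that fell, against 12.2% of all features: Kcnf1, Kcns1, Kcns2 and Kcns3. Kcnf1 was between 9.999 and 11.3 with a median of 10.7 in WT and 9.004, 10.1, 10.3, 9.94 and 8.82 in WTC, with 2 of the 5 WTC mice inside the WT range. Its log2 ratio was -1.05 ± 0.38 in the ratio fit and -1.01 ± 0.32 in the separate-channel fit. Kcns1, Kcns2 and Kcns3 changed by -0.74 ± 0.26, -0.77 ± 0.19 and -0.83 ± 0.24. The 11 auxiliary subunits split, with 4 lower (Kcnip1, Kcnip4, Kcnab1 and Kcne4) and 1 higher (Kcne1l), against 12.2% and 14.3% of all features. Kcnip4, a calcium-binding partner of A-type channels, was between 12.7 and 13.7 with a median of 12.97 in WT and 12.7, 11.9, 11.99, 11.7 and 11.3 in WTC. The WTC mouse of array A was at the lower edge of WT and the other 4 were below it. The separate-channel log2 ratio was -1.07 ± 0.23 (adjusted p 0.00352, 0.00139 to 0.374 over the fits tried), and its second probe gave -0.89 ± 0.18 in the ratio fit against -0.87 ± 0.25 for the probe used. Its relative Kcnip1 was lower in all WTC than in all WT mice, at -1.03 ± 0.31, Kcnab1, a beta subunit that speeds inactivation, was at -0.90 ± 0.30 and Kcne4 at -0.62 ± 0.21. Kcnab2, Kcnip2 and Kcnip3 did not pass, at -0.16 ± 0.16, -0.71 ± 0.33 and -0.18 ± 0.13 in the separate-channel fit. The ratio fit gave -0.12 to 0.13 for Kcnab2 with each array left out in turn. For the modifying subunits 8 of 9 log2 ratios were below 0, from -1.05 to 0.01 in the ratio fit, and for the auxiliary subunits 8 of 11 log2 ratios were below 0, from -0.87 to 0.75.

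Kcne1l, also named Kcne5, a single-span partner of potassium channels, rose. It was between 8.91 and 9.77 with a median of 9.23 in WT and 9.98, 9.74, 10.2, 10.4 and 10.4 in WTC, where only the mouse of array B was within the WT range. The separate-channel log2 ratio was 0.85 ± 0.21, or 1.80-fold (adjusted p 0.00711, 0.00252 to 0.608 over the fits tried).

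Among the 10 calcium- or sodium-activated channels 2 rose and 0 fell, against 14.3% and 12.2% of all features. Kcnn4, a calcium-activated channel of T cells, macrophages and microglia, was between 6.18 and 6.51 with a median of 6.29 in WT and 6.91, 6.71, 6.77, 7.11 and 7.04 in WTC. All WTC mice were above all WT mice, although only 4 of 6 WT mice were well above background, and the log2 ratio was 0.56 ± 0.13 (adjusted p 0.00486, 0.000659 to 0.422 over the fits tried). Kcnmb1, the beta subunit of smooth-muscle BK channels, rose by 0.58 (SE 0.18). The BK pore Kcnma1 was at -0.42 ± 0.17 and its neuronal partner Kcnmb4 at -0.58 ± 0.25, and neither passed. Across this class 8 of 10 log2 ratios were below 0, from -0.53 to 0.73 in the ratio fit.

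Inward rectifiers moved both ways. Kcnj16, the partner of the astrocyte channel Kcnj10, rose by 0.71 (SE 0.19). It was between 10.3 and 11.01 with a median of 10.7 in WT and 10.7, 11.6, 11.8, 11.2 and 11.3 in WTC, with the mouse of array A inside the WT range. The following 5 of 12 fell, against 12.2% of all features: Kcnj3 and Kcnj9, which form G-protein-gated channels, Kcnj11, the pore of ATP-sensitive channels, Kcnj12 and Kcnj14. Kcnj11 changed by -0.51 ± 0.11, Kcnj9 by -0.82 ± 0.18, Kcnj3 by -0.50 ± 0.17 and Kcnj14 by -0.41 ± 0.11. Kcnj12 was between 9.70 and 10.8 with a median of 9.96 in WT and 8.08, 8.80, 9.40, 9.10 and 9.59 in WTC, without overlap, and its log2 ratio was -1.09 ± 0.35 (adjusted p 0.0279, 0.000822 to 0.437 over the fits tried). Kcnj5, another subunit of G-protein-gated channels, was lower in all WTC than in all WT mice, at -0.86 ± 0.33, and did not pass. Kcnj2 and Kcnj4, strong inward rectifiers, were at -0.17 ± 0.07 and -0.21 ± 0.49 and did not pass. Among inward rectifiers 8 of 12 log2 ratios were below 0, from -0.95 to 3.08 in the ratio fit, the highest being Kcnj13.

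The 13 two-pore leak channels, which set the resting potential, held the largest rise among the genes that passed. Kcnk6 was between 8.73 and 9.58 with a median of 9.19 in WT and 10.04, 10.8, 10.5, 10.9 and 10.7 in WTC, so the lowest lesioned animal was above the highest intact one. The log2 ratio was 1.19 ± 0.40 in the ratio fit and 1.36 ± 0.30 in the separate-channel fit, 2.56-fold, with an adjusted p of 0.00338 (3.39e-05 to 0.374 over the fits tried). The other 4 that passed, Kcnk2, Kcnk3, Kcnk4 and Kcnk12, fell, against 12.2% of all features. Kcnk3, an acid-sensitive leak channel, was between 10.03 and 10.4 with a median of 10.2 in WT and 8.83, 9.34, 9.58, 9.29 and 8.89 in WTC. All WTC mice were below all WT mice, and the log2 ratio was -0.92 ± 0.23 (adjusted p 0.00868, 0.000303 to 0.417 over the fits tried). Kcnk2, which opens on stretch and warmth, was at -0.69 ± 0.23 and Kcnk12 at -0.57 ± 0.19. Kcnk4, a mechanosensitive neuronal channel, was between 10.4 and 10.8 with a median of 10.6 in WT and 10.1, 10.1, 10.1, 9.78 and 9.87 in WTC without overlap, with a separate-channel log2 ratio of -0.58 ± 0.11. In the separate-channel fit Kcnk1 was at -0.07 ± 0.09 and Kcnk13, a channel of microglia, at 0.19 ± 0.16, and neither passed. With each array left out in turn, the ratio fit gave the opposite sign for Kcnk1, 0.01 to 0.09. Among two-pore channels 7 of 13 log2 ratios were below 0, from -0.63 to 1.19 in the ratio fit.

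**Figure D2:**
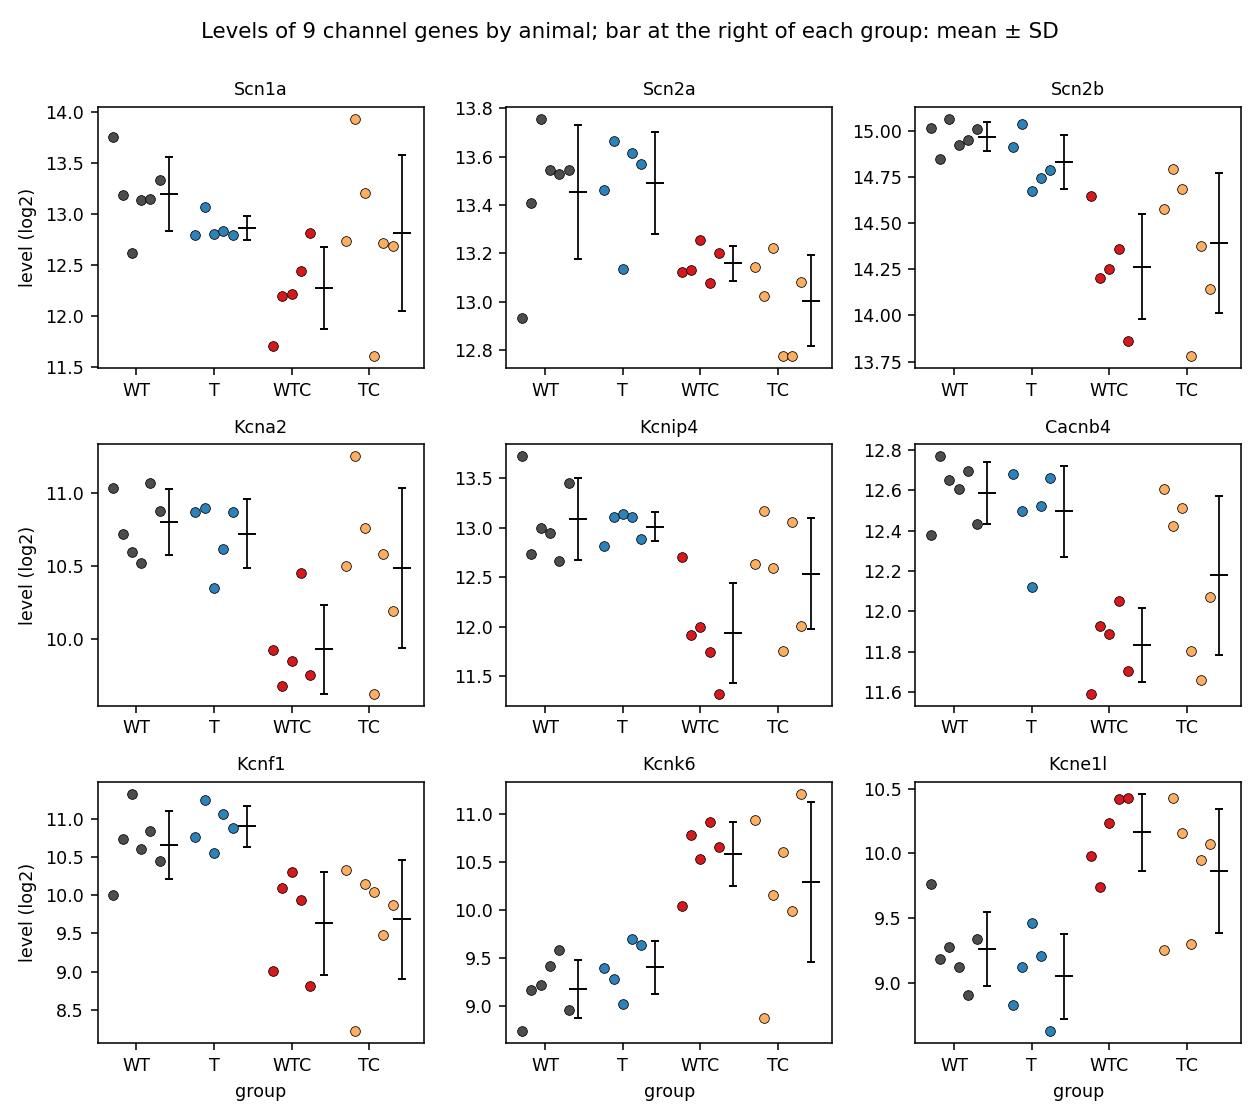
Levels (log2 intensity after normalisation) of 9 channel genes, 1 point per animal in WT (6), T (5), WTC (5) and TC (6), with the mean ± SD at the right of each group. Scn2b, Kcna2 and Cacnb4 are lower in all WTC than in all WT mice and Kcnk6 is higher, while the TC mice spread more widely than the WTC mice for Scn1a, Kcna2 and Kcnk6.

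Markers of several cell types moved with these genes. In the separate-channel fit of WTC against WT 12.2% of all features were lower and 14.3% higher. Of 7 neuronal markers, 3 fell (Eno2, Nefm and Thy1) and 0 rose in the separate-channel fit of WTC against WT, with mean levels of 14.7 to 15.3 in WT and 14.2 to 14.7 in WTC. Of 7 inhibitory neuron markers 1 fell, with mean levels of 13.2 to 13.7 in WT and 12.9 to 13.3 in WTC, and of 8 excitatory neuron markers 0 passed. Of 9 microglia and macrophage markers 8 rose, from 11.2 to 11.7 in WT to 12.7 to 13.6 in WTC, and of 8 astrocyte markers 6 rose, from 11.5 to 11.9 to 12.9 to 13.2. Their part in the changes of the channel genes was not tested. With the mean ratio of striatal markers as a covariate 0 channel genes passed the ratio fit, as without it, and the median log2 ratio of the channel genes was -0.23.

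In transgenic cortex the ratio fit again called 0 channel genes for the lesion. The separate-channel fit called fewer than in wild-type cortex, and also fewer of all features (7.35% against 26.5%). In the ratio fit of TC against T, 79 of 123 log2 ratios were below 0 (64.2%), against 48.8% of all features, with a median of -0.08 against 0.00. None passed after adjustment (0 of 123, and 0% of all features). At an unadjusted p under 0.05 there were 26, or 21.1% against 11.9% of all features, 5 of them higher (6.96% of all features) and 21 lower (4.97%). The separate-channel fit called 12, against 7.35% of all features, of which 1 rose, against 4.71% of all features, and 11 fell, against 2.65%. Kcne1l was higher and Kcns2 lower in the authors' deposited table, with 1 gene in each direction against 2.39% and 0.505% of features. All 6 TC mice were below all 5 T mice for 6 genes, against 2.8% of all features, and above them for 0, against 2.08%. Of the microglia and macrophage markers 7 rose here in the separate-channel fit and of the astrocyte markers 5 rose. Of the 8 excitatory and the 10 striatal neuron markers 0 passed that fit. In the ratio fit their median log2 ratios were -1.12 and -1.38. The TC mouse of array I had the lowest excitatory marker level of all animals. The part of all these markers in the changes of the channel genes was not tested.

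Kcnf1 changed most among those that fell. It was at 10.8, 11.2, 10.5, 11.1 and 10.9 in the 5 T mice and between 8.22 and 10.3 with a median of 9.96 in TC. The groups did not overlap, and the log2 ratio was -1.51 ± 0.37 in the ratio fit and -1.32 ± 0.31 in the separate-channel fit (adjusted p 0.0176, 0.0121 to 0.9998 over the fits tried). Without the TC mouse of array I, the lowest, it was -0.94 in the separate-channel fit and still passed, and without the whole of array I it was -0.83 in the ratio fit. Kcnh4, an ether-a-go-go relative, was at -0.65 ± 0.18 in the ratio fit (adjusted p 0.290) and did not pass. The other modifying subunit that fell was Kcng1, at -0.95 ± 0.27, which did not pass without that mouse.

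The 2 sodium channel alpha subunits that fell were Scn2a and Scn3a. Scn2a was at 13.5, 13.7, 13.1, 13.6 and 13.6 in T and between 12.8 and 13.2 with a median of 13.1 in TC, which overlapped only at the T mouse of array F. Its log2 ratio was -0.48 ± 0.12 (adjusted p 0.0204, 0.00374 to 0.9998 over the fits tried), and its 3 probes gave -0.42, -0.44 and -0.30 in the ratio fit. Scn3a, a channel of the developing brain, was at -0.59 ± 0.16. Both also passed without the TC mouse of array I, at -0.47 and -0.54. With the channel labels of arrays I, J and K, the ratio-fit value of Scn3a, -0.62 ± 0.24, became 0.01. Scn1a and the beta subunits Scn2b and Scn4b did not pass here, with separate-channel log2 ratios of 0.05 ± 0.28, -0.37 ± 0.14 and -0.73 ± 0.59.

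The potassium pore subunits Kcnq5, Kcnh6 and Kcna10 fell, at -0.92 ± 0.28, -0.22 ± 0.07 and -0.22 ± 0.06. Kcnh6 was well above background in 5 of 5 T and 3 of 6 TC mice and Kcna10 in 5 of 5 T and 1 of 6 TC mice, so that their values in TC are near the lower limit of the measurement. Kcnh6 and Kcna10 met the limit of 5 channels above background through intact mice, so their fall is tied to that filter. Kcnmb4 and Kcnu1, of the BK family, fell at -0.89 ± 0.24 and -0.50 ± 0.12, and so did the two-pore channel Kcnk4 at -0.38 ± 0.11. The ratio-fit value of Kcnmb4, -0.96 ± 0.34, became 0.08 with the channel labels of arrays I, J and K, and that of Kcnk4, -0.30 ± 0.13, became 0.02 without these arrays and 0.20 on slide 1 alone. Kcne1l was the gene that rose, from 8.83, 9.12, 9.47, 9.21 and 8.63 in T to between 9.26 and 10.4 with a median of 10.01 in TC, with a log2 ratio of 0.81 ± 0.20 (adjusted p 0.0235, 0.0235 to 0.9998 over the fits tried). Its ratio-fit value of 0.79 ± 0.28 became -0.02 without arrays I, J and K.

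Scn1a, Kcna2 and Kcnip4, which fell in lesioned wild-type mice, were high in some lesioned transgenic mice. In each of them the highest TC mouse was that of array I, and these genes were chosen after their values were seen. Scn1a was at 12.8, 13.1, 12.8, 12.8 and 12.8 in T and 12.7, 13.9, 13.2, 11.6, 12.7 and 12.7 in the 6 TC mice, of which 13.9 is the mouse of array I and 11.6 that of array K. Kcna2 was at 10.9, 10.9, 10.3, 10.6 and 10.9 in T and 10.5, 11.2, 10.8, 9.63, 10.6 and 10.2 in TC, with a separate-channel log2 ratio of -0.17 ± 0.20. Kcnip4 was at 12.8, 13.1, 13.1, 13.1 and 12.9 in T and 12.6, 13.2, 12.6, 11.8, 13.1 and 12.01 in TC, with a log2 ratio of -0.39 ± 0.23. In all 3 genes the groups overlapped, and none passed the separate-channel fit, with or without the TC mouse of array I. The TC mouse of array K had the lowest level of all 22 animals for 24 channel genes, more than any other animal.

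The TC mouse of array I bore on this comparison. Without it 12 genes again passed (9.76%, against 12.6% of all features, where with it all features were at 7.35%), but 6 of the 12 differed: Kcng1, Kcnh6, Kcnk4, Kcnmb4 and Kcnq5 were among those lost, and Kcnab1, Kcnb2, Kcnj11, Kcnk6, Kcnn4 and Scn2b were gained. Kcnk6 was 9.40, 9.28, 9.02, 9.70 and 9.63 in T and 10.9, 8.87, 10.2, 10.6, 9.99 and 11.2 in the 6 TC mice, in which 8.87 is the mouse of array I. Its separate-channel log2 ratio was 0.77 ± 0.29 with that mouse and 1.16 without it (adjusted p 0.105 and 0.00105). The channel labels of arrays J and K did not match the marker levels given above. On array I the label T matched the microglia and macrophage level, 11.3, whereas the astrocyte level, 12.5, lay above all intact mice. When the groups of arrays I, J and K were taken from the channel labels, the log2 ratio of the ratio fit changed sign for 39 of the 123 genes, and the median became 0.03. With slide as a term 3 genes passed the separate-channel fit, Kcnf1, Kcnu1 and Scn2a (2.44%, against 3.47% of all features). On slide 2 alone 0 passed, with 0% of all features.

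In intact cortex the transgene moved 0 channel genes past the threshold (ratio fit, adjusted p under 0.05), with 0% of all features, and the separate-channel fit also called 0 genes and 0% of features. At an unadjusted p under 0.05 the ratio fit had 7 genes (5.69%, against 2.93% of all features), 1 higher (0.997% of all features) and 6 lower (1.93%). Of the 123 log2 ratios 76 were below 0, against 50.8% of all features, with a median of -0.07 against 0.00. The 3 with the smallest p were Scn4b, Kcne3 and Kcnq1ot1, which did not pass. Scn4b was at 14.3, 13.6, 12.4, 14.1 and 13.9 in T and between 13.5 and 15.2 with a median of 14.8 in WT, which overlap, with a log2 ratio of -1.59 ± 0.52 (unadjusted p 0.0126, adjusted p 0.982). Kcne3 was at 0.23 ± 0.08 and Kcnq1ot1 at -0.53 ± 0.21. The sole gene whose T mice were all below the WT mice was Kcnn3, a small-conductance calcium-activated channel, at -0.33 ± 0.14, against 0.273% of all features. The 10 striatal neuron markers had a median log2 ratio of -1.22 in this comparison, beside that of Scn4b, and their part in it was not tested.

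Between lesioned transgenic and lesioned wild-type cortex 0 channel genes passed, with 0% of all features in the ratio fit and 0.142% in the separate-channel fit (0.116% higher and 0.027% lower), which also called 0 channel genes. At an unadjusted p under 0.05 there were 16 in the ratio fit (13%, against 14.8% of all features), 9 higher (6.1% of all features) and 7 lower (8.66%). Of the 123 log2 ratios 68 were below 0, against 55.6% of all features, and 46 under median normalisation. Kcns3 and Kcnq1ot1 were among the 3 with the smallest p and did not pass. Kcns3 was at 9.81, 8.66, 8.002, 8.93 and 8.03 in WTC and between 8.40 and 9.87 with a median of 9.26 in TC. The values overlap across most of their range, and the log2 ratio was 0.59 ± 0.16 (adjusted p 0.181). Kcnq1ot1 was at -0.72 ± 0.21. All TC mice were below all WTC mice for 1 channel gene, against 0.243% of all features, and above them for 0, against 0.212%.

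The authors' deposited table had 12 channel genes higher and 1 lower in TC than in WTC at an adjusted p under 0.05, against 10.3% and 6.14% of features. Among the higher ones in the authors' deposited table were Cacnb2, Kcna2, Kcnab3, Kcnip1, Kcnip4, Kcnj14, Kcnk3, Kcnk12, Kcnrg, Kcns3 and Scn4a, and the lower one was Kcnq1ot1. The ratio-fit log2 ratios of these genes had the same signs. They ran from 0.16 for Scn4a to 1.01 for Kcnab3 among the higher ones named, and Kcnq1ot1 was at -0.72.

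The test of whether the lesion effect differed between genotypes, (TC minus T) minus (WTC minus WT), called 0 channel genes in the ratio fit and 0 in the separate-channel fit, with 0% of all features in both. At an unadjusted p under 0.05 there were 15 (12.2%, against 5.34% of all features), 12 of them with a difference above 0 (2.9% of all features) and 3 below it (2.44%). Of the 123 differences 54 were below 0, against 54.6% of all features. The 3 with the smallest p were Kcnb2, Kcng4 and Kcnj14, at -0.26 ± 0.10, 1.14 ± 0.44 and 0.37 ± 0.14, and none passed. For Scn1a the difference was 1.01 ± 0.45 and for Scn2a -0.28 ± 0.15. So the genes that passed in 1 genotype alone are not shown to respond differently in the other.

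The spread between animals was largest for a few genes and followed single mice. Kcnh3, Kcnj4 and Kcnv1, channel genes of forebrain neurons, spanned 4.51, 4.46 and 4.37 log2 units, each with its lowest level in the TC mouse of array I (10.2, 10.4 and 7.28). The WT mouse of array A was the lowest of the 6 WT mice for the same genes, at 11.8, 12.2 and 8.62, where the other WT mice were at 13.8 to 14.7, 13.7 to 14.9 and 10.4 to 11.4. Other genes were highest in the TC mouse of array I, such as Kcng4 at 9.49 with the other 21 mice at 6.34 to 7.95, and Kcnc1 at 12.7. In 23 genes that mouse was the highest, among them Scn1a at 13.9 and Kcnip1 at 10.6, which had fallen with the lesion in wild-type mice. The TC mouse of array L was also low in Kcnh3, Kcnj4 and Kcnv1, at 12.3, 12.5 and 8.90. The WT mouse of array A had the second highest Kcnc1 level, 12.3. In these 2 mice the mean level of the excitatory neuron markers was 9.41 and 10.6, while that of 7 general neuronal markers was 15.2 and 15.3, at the upper end of all animals.

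**Figure D3:**
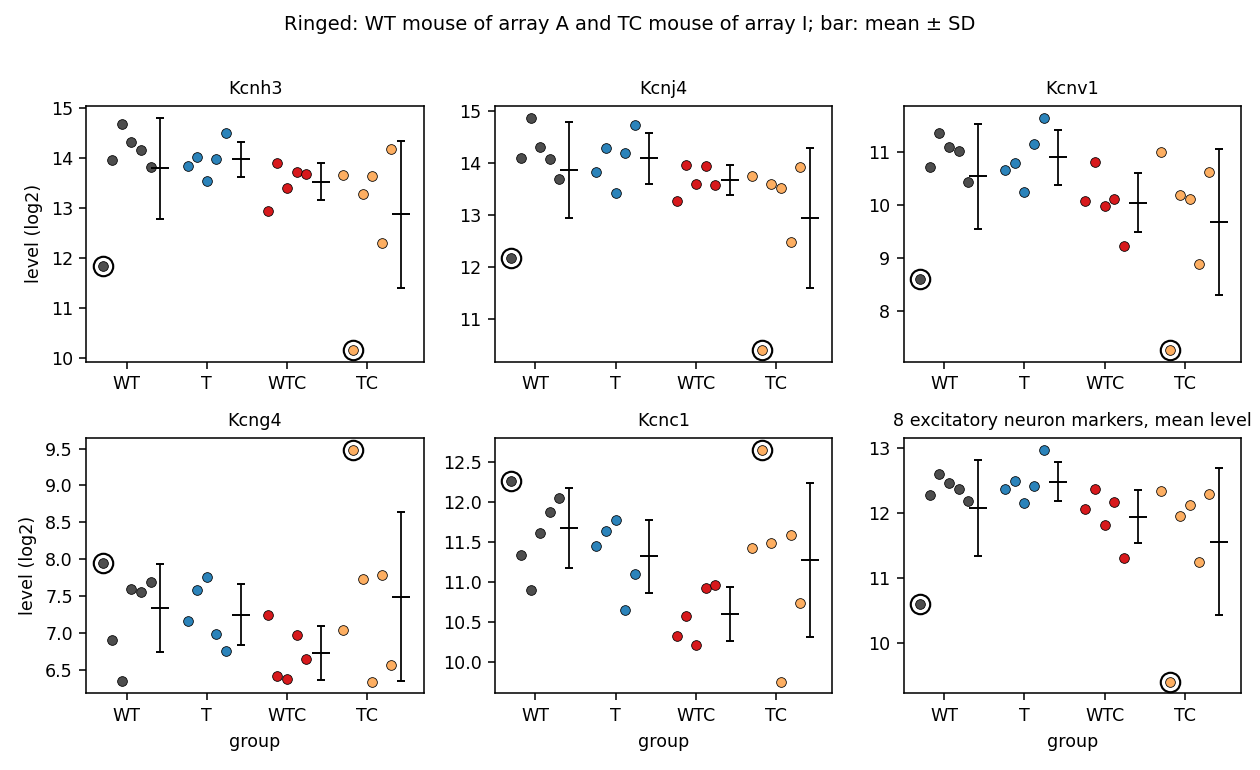
Levels (log2) by group, 1 point per animal, of Kcnh3, Kcnj4, Kcnv1, Kcng4 and Kcnc1 and the mean level of 8 excitatory neuron markers, with the mean ± SD at the right of each group. The ringed mice, WT of array A and TC of array I, are low in Kcnh3, Kcnj4, Kcnv1 and the markers and high in Kcng4 and Kcnc1.

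Kcnj13, the inward rectifier of choroid plexus epithelium, had the widest span, 6.19 log2 units. It was high in the WT mouse of array D (12.3), in 4 of 5 WTC mice (7.34, 12.9, 11.8, 11.02 and 11.2) and in the TC mice of arrays J and L (12.6 and 12.3), and between 6.71 and 9.61 in all others. The mean of 7 choroid plexus and ependyma markers was 11.4 to 12.7 in those 7 mice and 8.09 to 10.1 in the others. With a log2 ratio of 3.08 ± 1.43 between WTC and WT (ratio fit, adjusted p 0.274) it was the largest shift of any channel gene and did not pass. The value was 1.12 without array B and 4.21 without array A. In the authors' deposited table it was higher, with a log ratio of 3.86 whose base is not stated and an adjusted p of 0.0264. The part of choroid plexus tissue in this ratio was not tested.

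Scn4b was the second, with a span of 4.55 log2 units, from 10.6 in the WTC mouse of array A to 15.2 in the WT mouse of array B. The mean of 10 striatal neuron markers was 8.98 and 12.96 in these animals and ranged over 8.98 to 13.1 in all. All 10 markers passed the filter on dim probes although the tissue is labelled cortex, and their part in the Scn4b ratios was not tested. In the ratio fit with the mean ratio of the striatal markers as a covariate, the log2 ratio of Scn4b between WTC and WT was -1.11 ± 0.51, against -1.75 ± 0.58 without it. Kcnq1ot1 was at 9.50 and 10.2 in the WTC mice of arrays K and M and at 9.06 and 9.06 in the TC mice on the same arrays, while the other 18 mice lay between 6.81 and 8.20. Its high values thus came in both mice of 2 arrays.

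**Figure D4:**
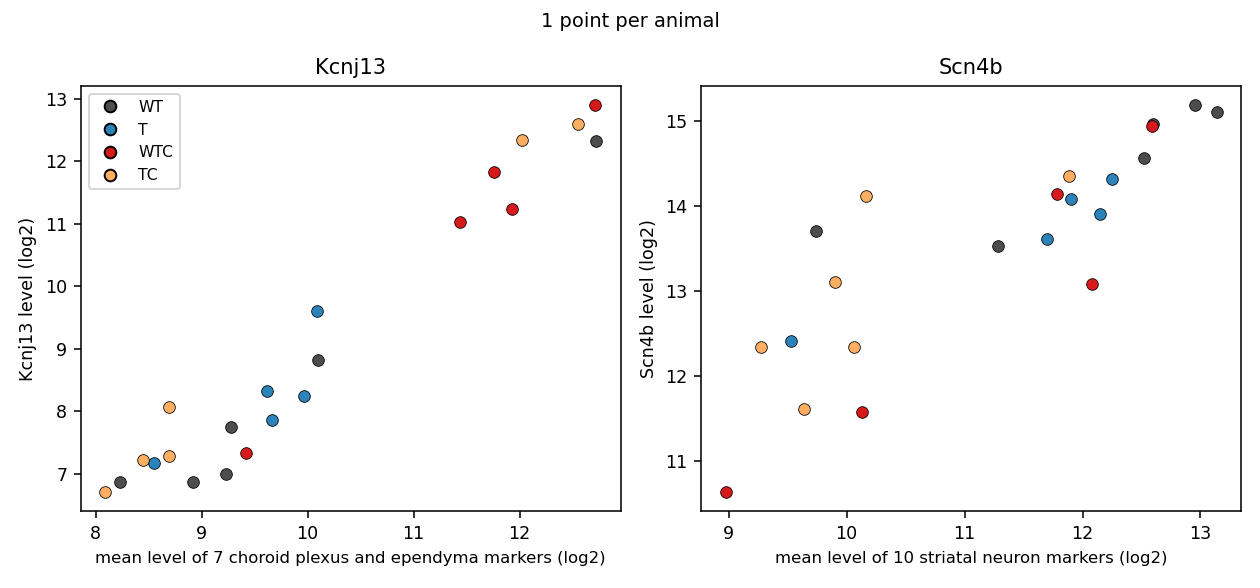
Level of Kcnj13 against the mean level of 7 choroid plexus and ependyma markers (left) and of Scn4b against the mean level of 10 striatal neuron markers (right), all log2, 1 point per animal coloured by group. The 7 animals with high Kcnj13 are those with marker levels of 11.4 or more, and the lowest Scn4b levels lie at low striatal marker levels.

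Other genes of membrane excitability were listed with earlier results of these data known. They gave the following counts in the separate-channel fit of WTC against WT, where 12.2% of all features were lower and 14.3% higher. Of 11 auxiliary proteins of channels 5 fell and 0 rose, among them Fgf12 at -0.91 ± 0.19 and Fgf14 at -0.68 ± 0.17, which bind sodium channels at the axon initial segment, and Dpp10 at -0.95 ± 0.33, a partner of A-type channels. Of 9 proteins of the axon initial segment and nodes 4 fell and 0 rose, among them the scaffold Ank3 at -0.60 ± 0.13 and Cntnap1 at -0.54 ± 0.11. Of 10 pumps and transporters 2 fell, the chloride exporter Slc12a5 at -0.63 ± 0.17 and the calcium pump Atp2b2 at -0.41 ± 0.14, and 1 rose. Of 10 pacemaker and leak channels 2 fell, Clcn6 and Unc79, and 1 rose, the proton channel of microglia Hvcn1 at 1.34 ± 0.27. Of 5 transcriptional regulators 2 rose, Rest, the repressor of neuronal genes that include sodium channels, at 0.60 ± 0.11 and its partner Rcor1 at 0.29 ± 0.09.

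In TC against T, where 2.65% of all features were lower and 4.71% higher, the same lists gave 1 lower auxiliary protein (Nedd4l, a ubiquitin ligase, at -0.60 ± 0.15), 0 node proteins, 1 lower leak channel component (Unc79 at -0.38 ± 0.09) and 1 higher pump or transporter. Rest rose again, at 0.50 ± 0.11, and Nr4a1, an activity-induced gene, fell at -1.08 ± 0.25. In T against WT and in TC against WTC 0 genes of these 5 lists passed the separate-channel fit. At an unadjusted p under 0.05 the ratio fit had 6 of the 45 genes measured in these lists in the first comparison, against 2.93% of all features, and 5 in the second, against 14.8%.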

How the data were processed

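Intensities of 22 channels on 11 Agilent arrays were used as the authors deposited them: median red and green signals and their median local backgrounds, extracted, per the file headers, by Agilent Feature Extraction 10.7.3.1. That software's deposited log10 ratios and the authors' deposited table (log2 ratios, with the base taken as 2 and not stated, and adjusted p-values, from limma per the submitters' processing notes) served as comparisons. Damaged p-values in it, 609 in all (1.09%) and 2 of channel genes, were not read. Background was corrected with normexp (offset 50), dyes were normalised by loess within arrays, with control spots and outliers at weight 0, and spots of a probe were averaged. Levels per animal are Aquantile-normalised log2 intensities with the dye effect removed.

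A feature is a gene, by its brightest probe, or an unnamed probe. It was kept if 5 or more of the 22 channels were well above background, and 117 features without a value on some array were left out. The lesion effects (WTC minus WT and TC minus T), their difference, and the genotype effects (T minus WT without and TC minus WTC with a lesion) came from a linear model of the array ratios with a dye term (limma 3.58.1, R 4.3.3, 7 residual degrees of freedom), called the ratio fit. The separate-channel fit (17 residual degrees of freedom, intraspot correlation 0.318) was an alternative. Adjusted p-values are Benjamini-Hochberg values over 25965 features, of which 16012 had a symbol. Both fits were tested on simulated data. The number of arrays limits the precision.

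Genes were named by these rules: up to 8 per direction among those that passed in a comparison or, with under 3 such genes, the 3 of smallest p; the brightest and the smallest-p gene of each class; a list of known channels; and the 3 genes with the widest spread. Genes named because they passed the separate-channel fit alone, because their groups did not overlap or because of their level in 1 animal were chosen after their values were seen. The members and all lists were chosen with earlier results of these data known. Alternatives concerned background correction, normalisation, filter, probe rule, dye term, slide, variance prior, array weights, the conflicting labels, striatal markers, Ddx3y and single arrays. Promoter sequences came from RefSeq (GRCm38.p6). Symbols were matched to RefSeq through the accessions of the array. The 8 genes below the filter were not tested, and certain genes that were tested are not reported by name here.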

Additional observations from a re-analysis of the deposited data

Results flagged for a closer look

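In 6 of 236 groups of levels examined, 1 animal lay far from the rest of its group by Dixon's criterion, which chance alone meets in about 1 of 20 groups. Cacng2 was lowest in the WT mouse of array C, at 10.9, with the next WT mouse at 11.3. Kcnab2 was highest in the WTC mouse of array A, at 8.53, with the next at 7.65. The WT mouse of array A was lowest for Kcnh3, at 11.8 against 13.8 for the next, and for Kcnv1, at 8.62 against 10.4. Kcnj13 was highest in the WT mouse of array D, at 12.3 against 8.81. Scn1a was highest in the T mouse of array E, at 13.1 against 12.8, in a group whose other 4 mice lay close together.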

How the results depend on the processing

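The ratio fit called 0 channel genes in each of the 5 comparisons. For WTC minus WT, the count became 24 on slide 1 alone (1 higher, 23 lower, against 8.28% of all features), 51 with array weights (10 higher, 41 lower, against 38.3%), 7 without arrays I, J and K (6.69%), 39 in the separate-channel fit (26.5%), 18 with slide as a term in it (13.2%) and 43 when the TC mouse of array I was left out (32.3%). The separate-channel fits without 2 mice (WT of array A and TC of array I) and of slide 1 alone were chosen after seeing the data, and gave 52 (27.6% of all features) and 40 (24.5%). For TC minus T the counts were 5 with array weights (7.13% of all features), 12 in the separate-channel fit (7.35%), 3 with slide (3.47%), 12 without the TC mouse of array I (12.6%), 17 without 2 mice (13.5%) and 3 on slide 1 alone (3.96%). The separate-channel fit of slide 1 alone also called 2 genes in TC minus WTC (0.572% of all features) and 1 in the difference of the lesion effects (0.365%). TC is 1 mouse on that slide, assumed to vary like the other groups. Leaving out single arrays gave 0 to 2 genes in WTC minus WT, with Kcna10 and Kcnk6 passing without array I and Kcnip4 without array K, and 0 to 0 in the other comparisons. The other alternatives also gave 0. The cause of these differences was not tested.

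Median normalisation moved the median of all features in WTC minus WT to -0.11 and that of the channel genes to -0.38, and the medians of all classes in that comparison kept their sign under each scaling. In TC minus WTC, it lowered the count of channel genes below 0 from 68 to 46. With the channel labels of arrays I, J and K, the median of TC minus T turned to 0.03. None of the 39 genes of WTC minus WT changed sign under any alternative. In TC minus T, Kcne1l and Kcnk4 did so without arrays I, J and K, Kcnk4 on slide 1 alone, and Kcnmb4 and Scn3a with the channel labels. Slide 2 alone could not estimate the comparisons with WT. Genes close to background, such as Cacng1 and Kcna10 in WTC, have only bounds on their change. No paired analysis was possible because each number in the titles belongs to a single mouse and the arrays pair different mice.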

Other observations

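Scn7a, a sodium channel relative that senses extracellular sodium, was well above background in 4 WT mice and 1 T mouse and in no lesioned mouse. Its level was 7.79 and 7.75 in the WT and T mice of array E and 5.91 to 6.32 in the other 20 mice, so it passed the filter through intact mice and its high values come from both mice of a single array. Cacna1f was well above background in no WT mouse, Kcng3 in no TC mouse and Kcnk5 in no T mouse. Several probes passed the filter for 40 channel genes, and their log2 ratios had opposite signs, each beyond 0.1 in size, for Scn8a in WTC minus WT, for Kcng2 and Kcnk4 in T minus WT, for Kcnc1 and Kcng2 in TC minus T, and for Cacna1s, Kcnc1 and Kcnj3 in TC minus WTC.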
